A study of Mus musculus with 8 samples.

Results

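The genes described here are Gsdmc2, Gsdmc3 and Gsdmc4, a cluster of gasdermin C paralogs on mouse chromosome 15, the epithelial genes Pla2g4c, Mptx1 and Retnlb, and Il4ra and Stat6, which carry the interleukin-4 and interleukin-13 signal into the cell. They are 8 of the 55487 genes in the deposited table and were taken by gene symbol. Pla2g4c, Mptx1 and Retnlb were chosen from the values of these same libraries, because they varied with the Gsdmc paralogs, so that this covariation is a description and is not tested. RNA came from the ileum of mice given irinotecan, a topoisomerase I inhibitor that injures the intestine, and was sequenced in bulk after poly(A) selection. There were 4 wild-type mice (Gsdme+/+, here WT) and 4 mice without Gsdme (Gsdme-/-, here Gsdme_KO), the gene of the pore-forming protein gasdermin E. All 8 received irinotecan, no untreated mice were analysed here, and the sources used here give no strain, age, dose, time or construction of the Gsdme allele.

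Gasdermins are pore-forming proteins that are opened when a protease removes an inhibitory domain. In the intestine, the Gsdmc paralogs are known as epithelial genes that interleukin-4 and interleukin-13 induce through Stat6 during the type 2 response to worms. In that response tuft cells release interleukin-25, innate lymphoid cells answer with interleukin-13, and the epithelium makes more goblet and tuft cells and secretes proteins such as Retnlb.

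Most of these genes ranged far more widely among the libraries of 1 genotype than their means differed between genotypes. Gsdmc2, Gsdmc3, Gsdmc4 and Pla2g4c were lowest in 1 WT library (WT8) and 1 Gsdme_KO library (KO4), at 5.34 to 24.2 times below the lowest of the other 6 libraries, and the 3 paralogs were highest in KO5. Mptx1 was low in WT8 but not in KO4, Retnlb was highest in KO5 and KO4, Il4ra was highest in KO4, and Stat6 varied by 1.18-fold over all 8 libraries. None of the 8 genes passed the test between genotypes, which 0.00612% of the 16352 genes tested passed. Gsdme itself, low in every Gsdme_KO library, did not pass it either, so not passing does not show that a gene is unchanged. In bulk RNA, fewer cells that express a gene and less RNA per cell cannot be told apart.

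The libraries held 15617407 to 23437343 reads in genes. Values are normalized counts, that is reads divided by a size factor for each library, unless stated. Gsdme had 2169 to 3376 normalized counts in WT and 113 to 634 in Gsdme_KO. The ileal genes Fabp6, a bile acid carrier, and Slc10a2, the ileal bile acid transporter, were present in all libraries, at 14739 to 72985 and 7983 to 25319. KO4 and KO5 stood apart from the others in 13 B cell and follicle markers, whose summed level was 12184 in KO4, 7210 in KO5 and 482 to 682 in the other 6. The summed level of 15 mature enterocyte markers was 182349 in KO4, 274195 in KO5 and 382717 in WT8, against 491790 to 661642 elsewhere.

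The ligands of the pathway were near the limit of detection in whole tissue. Il13 had 17.3 normalized counts in KO5 and 1.13 to 4.56 in the other 7 libraries, and Il9 was at 0 in all 8. Il25, the tuft cell cytokine, had 0.751 to 7.15. Il33, an alarmin of epithelium and stroma that acts upstream of these cytokines, reached 3822 in KO4 and 944 in KO5, and lay at 251 to 637 in the other 6. Of the 9 listed cytokines and alarmins, Il33, Areg and Tslp were abundant enough to be tested, and 0 of these 3 passed.

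Il4ra (ENSMUSG00000030748, chromosome 7, 125552120 to 125579474, plus strand, GRCm38) encodes the receptor chain shared by interleukin-4 and interleukin-13. It had 1626 (WT3), 2335 (WT5), 1776 (WT7) and 1501 (WT8) normalized counts in WT. In Gsdme_KO it had 4234 (KO4), 2210 (KO5), 1618 (KO7) and 1969 (KO8). KO4 lay above every other library, and the remaining 3 Gsdme_KO libraries lay inside the WT range. The means were 1810 ± 368 and 2508 ± 1176 (SD, n = 4). Log2 fold changes here and below are Gsdme_KO minus WT, from means of log2(normalized count + 1). That of Il4ra was 0.39 (SE 0.28, limma adjusted p = 0.849), and it was 0.10 without KO4 and 0.00 without KO4 and KO5. Il13ra1, the other chain of the epithelial receptor, had 5156 in KO4 and 2890 to 3617 in the other 7 libraries. Il1rl1, the receptor for interleukin-33, had 1365 in KO4 and 381 to 994 elsewhere. Il17ra, a chain of the interleukin-25 receptor, had 748 in KO4 and 430 to 528 elsewhere, and Crlf2, the receptor chain for Tslp, had 369 in KO4, 343 in KO5 and 188 to 268 in the other 6. Not every receptor gene was highest in KO4. Il17rb, the other chain of the interleukin-25 receptor, had 102 in KO4 and 55.5 (WT8) to 161 (WT5) elsewhere, and Il1rap, the accessory chain of the interleukin-33 receptor, had 138 in WT8 and 127 in KO4. Both were named after their values were seen.

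Among 11 tested receptor genes other than Il4ra, 0 passed the test in either direction. All 11 had a positive log2 fold change with a median of 0.40, beside a median of 0.00260 over all genes tested. Without KO4 and KO5 the count was 6 of 10 with a median of 0.09. KO4 and KO5 are also the libraries with most B cell marker RNA (12184 and 7210, against 482 to 682), and the part of such cells in this difference was not tested.

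Stat6 (ENSMUSG00000002147, chromosome 10, 127642986 to 127660957, plus strand, GRCm38) encodes the transcription factor that the receptor activates. Its values were 2365, 2500, 2708 and 2467 normalized counts in WT3, WT5, WT7 and WT8. In KO4, KO5, KO7 and KO8 they were 2545, 2326, 2407 and 2288. All 8 libraries lay close together and the genotypes overlapped. Means were 2510 ± 144 and 2392 ± 114 (SD, n = 4), a difference of -0.07 in log2 (SE 0.07, 95% interval -0.24 to 0.10, limma adjusted p = 0.872). The SD of its log2 values within genotypes was 0.0751, and 96.8% of the genes tested varied more. Stat6 overlaps Nab2 on the other strand by 40 bases, and Nab2 had 287 to 531 normalized counts.

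The abundant signalling genes Jak2, Stat3, Ptpn11 and Jak1 ranged less widely among libraries than the Gsdmc paralogs. Of 16 tested genes of the signalling list other than Stat6, 0 passed the test, 11 had a positive log2 fold change and the median was 0.10, which became -0.05 with 6 positive without KO4 and KO5. Jak2, a kinase of cytokine receptors, had 2493 to 2958 normalized counts. Stat3, a factor that other cytokines activate, had 3406 to 5379, and Ptpn11, a phosphatase of cytokine and growth factor signalling, had 1490 to 1914. Jak1, the kinase bound to Il4ra, had 3219 in KO4 and 2352 to 2827 in the other 7 libraries. Socs1, a feedback inhibitor of Jak kinases that many cytokines induce, reached 795 in KO4 and 207 in KO5, with 56.3 to 164 in the others.

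Gsdmc2, Gsdmc3 and Gsdmc4 lie next to each other on the minus strand of chromosome 15 (GRCm38). Gsdmc2 (ENSMUSG00000056293) spans 63824346 to 63845177, Gsdmc3 (ENSMUSG00000055827) 63857724 to 63878558, and Gsdmc4 (ENSMUSG00000055748) 63891264 to 63912297. Each has a coding sequence of 1440 bases in GENCODE M21. Gsdmc2 and Gsdmc3 are 97.1% identical over 1440 aligned bases with 42 mismatches, and Gsdmc4 is 93.8% identical to each of them with 89 mismatches and 12 gap bases. Reads from such genes can be hard to assign, so the first 120 coding bases and the 90 coding bases that differ most are shown. The first 120 bases differ at 2 positions, in capitals.

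Gsdmc2: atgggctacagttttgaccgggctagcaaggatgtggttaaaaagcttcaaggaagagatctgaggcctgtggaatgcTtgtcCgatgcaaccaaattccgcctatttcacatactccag
Gsdmc3: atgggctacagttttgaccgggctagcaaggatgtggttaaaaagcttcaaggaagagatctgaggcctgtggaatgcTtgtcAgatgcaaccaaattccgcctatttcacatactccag
Gsdmc4: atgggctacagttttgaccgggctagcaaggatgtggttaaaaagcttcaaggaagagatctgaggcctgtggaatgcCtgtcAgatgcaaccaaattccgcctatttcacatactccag

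A read inside this stretch that misses those positions matches all 3 genes. The stretch that differs most, coding bases 778 to 867 of Gsdmc2 and Gsdmc3 and 784 to 873 of Gsdmc4, has 22 positions at which the paralogs are not all alike, in capitals.

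Gsdmc2: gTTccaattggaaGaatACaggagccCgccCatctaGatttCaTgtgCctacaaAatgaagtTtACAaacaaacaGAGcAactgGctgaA
Gsdmc3: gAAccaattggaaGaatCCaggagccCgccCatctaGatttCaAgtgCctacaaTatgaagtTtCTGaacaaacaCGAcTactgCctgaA
Gsdmc4: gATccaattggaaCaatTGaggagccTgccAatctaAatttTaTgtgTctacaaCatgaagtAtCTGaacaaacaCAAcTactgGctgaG

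Over these 90 bases, Gsdmc2 differs from Gsdmc3 at 13 positions and from Gsdmc4 at 18, and Gsdmc3 differs from Gsdmc4 at 15. Across the whole coding sequences, 46.7% to 50.8% of all windows of 50 bases occur unchanged in another gene of the cluster, and 13.2% to 21.9% of windows of 150 bases do. The sources used here give neither the read length nor the treatment of reads with several matches, so the split among paralogs is less certain than their sum.

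Gsdmc2 had 1013 (WT3), 3257 (WT5), 1179 (WT7) and 72.0 (WT8) normalized counts in WT. In Gsdme_KO it had 190 (KO4), 8526 (KO5), 1886 (KO7) and 2052 (KO8). WT8 and KO4 were the low libraries, 14.1 and 5.34 times below the lowest of the other 6, and KO5 was the high one. The genotypes overlapped between 190 and 3257, with WT8 below and KO5 above. Means were 1380 ± 1343 in WT and 3163 ± 3673 in Gsdme_KO (SD, n = 4). The difference was 1.12 in log2 (SE 1.35, 95% interval -1.95 to 4.18, limma adjusted p = 0.882). Without WT8 the log2 fold change was 0.01, and without KO4 it was 2.13.

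Gsdmc3, the least abundant paralog per length, had 440, 784, 454 and 18.2 normalized counts in WT3, WT5, WT7 and WT8. It had 21.2, 1957, 687 and 765 in KO4, KO5, KO7 and KO8. The low values rest on 22 reads in WT8 (95% exact Poisson interval 13.8 to 33.3) and 23 reads in KO4 (14.6 to 34.5), intervals that cover counting error only. They are 24.2 and 20.8 times below the lowest of the other 6 libraries. Means were 424 ± 314 and 858 ± 805 (SD, n = 4), a difference of 0.73 in log2 (SE 1.55, limma adjusted p = 0.935) that turned to -0.47 without WT8 and -0.05 without KO5.

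Gsdmc4 had 1269, 4125, 1372 and 67.9 normalized counts in WT3, WT5, WT7 and WT8. It had 60.8, 8015, 2664 and 2483 in KO4, KO5, KO7 and KO8. Again WT8 and KO4 lay far below the other 6 libraries, by 18.7 and 20.9 times, and the genotypes overlapped. Means were 1708 ± 1717 and 3306 ± 3356 (SD, n = 4), a difference of 0.68 in log2 (SE 1.65, limma adjusted p = 0.943) that turned to -0.52 without WT8 and -0.18 without KO5.

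**Figure D1:**
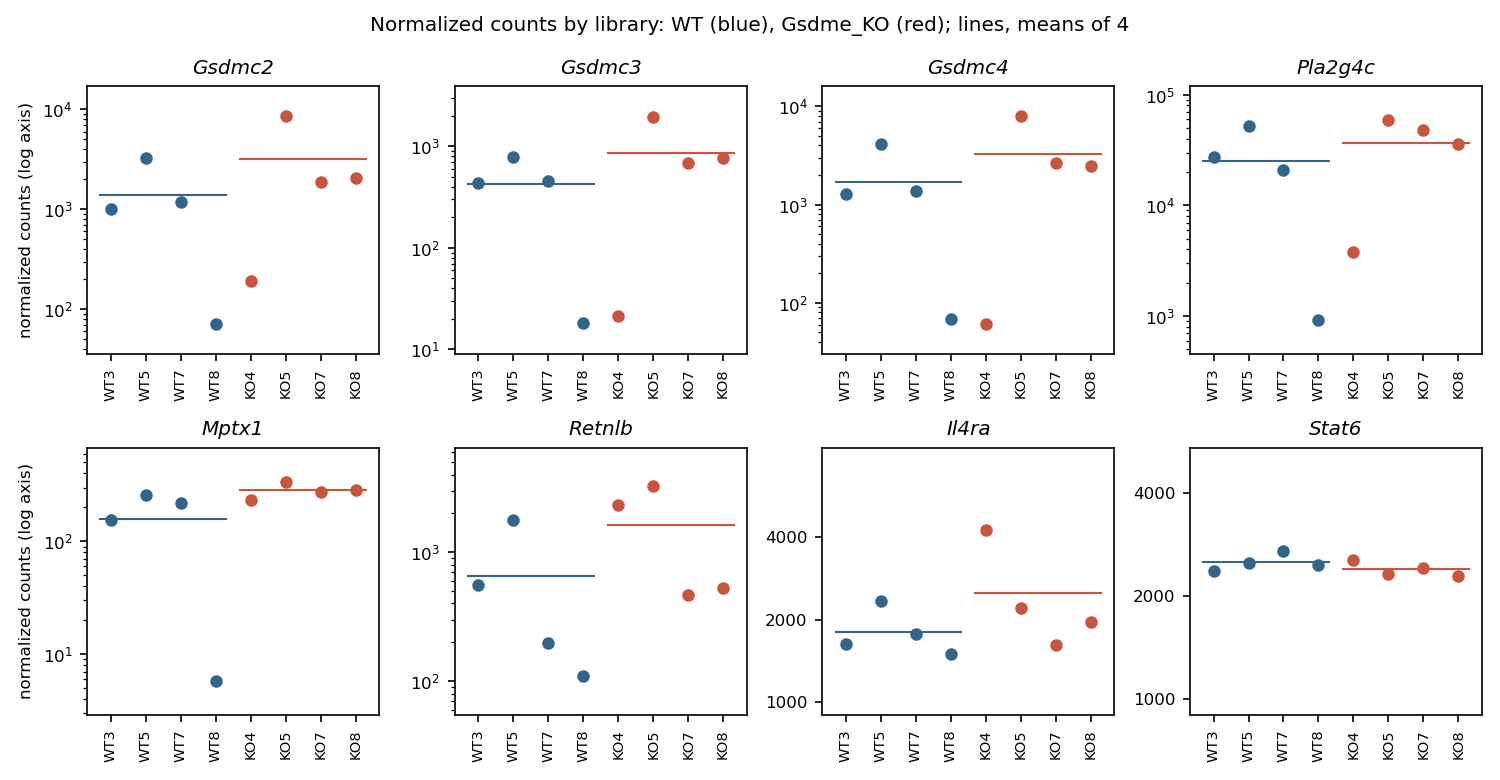
Normalized counts of the 8 genes (log axes, each panel with its own range) in the 4 WT libraries (blue) and the 4 Gsdme_KO libraries (red), with lines at the group means. WT8 and KO4 are the low points of Gsdmc2, Gsdmc3, Gsdmc4 and Pla2g4c, while Stat6 stays between 2288 and 2708.

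KO4 differed from the other libraries in which paralog its few gasdermin C reads came from. Gsdmc2 held 69.8% of the 295 reads of the 3 paralogs in KO4 (95% exact binomial interval 64.2% to 75.0%), against 36.0% to 46.1% in the other 7 libraries. Gsdmc4 held 22.4% in KO4 (17.7% to 27.6%), against 43.3% to 50.9% in the 6 libraries other than WT8. In WT8, with 191 reads, Gsdmc2 held 45.5% (38.3% to 52.9%) and Gsdmc4 42.9% (35.8% to 50.3%). The intervals cover counting error only, and the reads of the paralogs may not be fully separated. These shares were compared after their values were seen.

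The protein-coding neighbours beyond Gsdmc4 did not share the range of the cluster. On the other side, Gsdmc itself (chromosome 15, 63775968 to 63808759, minus strand) had at most 1.19 normalized counts in any library, too low to tell. Cyrib, the next gene beyond Gsdmc4, had 944 to 1461, and Asap1, after it, had 647 to 906, with no low value in WT8 or KO4 of the kind seen in the cluster. Gsdmcl-ps (63914448 to 63925666, plus strand), a gasdermin C-like pseudogene between Gsdmc4 and Cyrib, had 155 in KO5, 2.48 in WT8 and 0.922 in KO4, with 5.67 to 47.5 in the others, and its reads may belong to the cluster. Gsdmcl1 was at 0 in all libraries and Gsdmcl2 had at most 5.26. Elsewhere in the family, Gsdmd, the inflammasome effector, had 3947 to 6798.

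Pla2g4c (ENSMUSG00000033847, chromosome 7, 13324655 to 13360672, plus strand, GRCm38) encodes a cytosolic phospholipase A2, an enzyme that frees fatty acids from membrane lipids. It had 27240 (WT3), 51663 (WT5), 20922 (WT7) and 918 (WT8) normalized counts in WT. In Gsdme_KO it had 3772 (KO4), 59587 (KO5), 47565 (KO7) and 35921 (KO8). The low libraries were the same as for the gasdermins, at 22.8 times (WT8) and 5.55 times (KO4) below the lowest of the other 6. Means were 25186 ± 20916 and 36711 ± 23991 (SD, n = 4), a difference of 0.96 in log2 (SE 1.32, limma adjusted p = 0.899) that turned to -0.31 without WT8. On the recovered reads it was 0.55 by edgeR (adjusted p = 0.934) and 0.55 by DESeq2 (adjusted p = 0.976). Pla2g4c shared 5.02% of its 50-base coding windows with another gene, Pla2g4c-ps, and none of 100 bases, and Pla2g4c-ps had at most 12.01 normalized counts.

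The most abundant other phospholipase A2 genes had narrower ranges. Pla2g2a, a secreted enzyme, had 467 to 1684 normalized counts and Pla2g12b had 575 to 1108. Of 13 tested genes of the family other than Pla2g4c, 0 passed the test, with 10 positive log2 fold changes and a median of 0.25 that was -0.08 without KO4 and KO5. Their median r with the mean level of the Gsdmc paralogs was -0.11 over the 8 libraries and 0.42 over the 6 without WT8 and KO4, so that its sign turned.

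Mptx1 (ENSMUSG00000026531, chromosome 1, 174330518 to 174332873, plus strand, GRCm38) encodes a mucosal pentraxin, a secreted protein of the intestinal epithelium. It had 154, 258, 218 and 5.79 normalized counts in WT3, WT5, WT7 and WT8. It had 230, 339, 275 and 287 in KO4, KO5, KO7 and KO8. Mptx1 was therefore low in WT8 only, where 7 reads were counted (95% exact Poisson interval 2.81 to 14.4), 26.6 times below the lowest of the other 7 libraries, and it was not low in KO4. Means were 159 ± 111 and 283 ± 44.5 (SD, n = 4), a difference of 1.68 in log2 (SE 1.04, 95% interval -0.68 to 4.03, limma adjusted p = 0.849). Without WT8 it was 0.45, and on the recovered reads it was 0.84 by edgeR (adjusted p = 0.870) and 0.83 by DESeq2 (adjusted p = 0.944).

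Its paralog Mptx2, which is 91.9% identical in coding sequence and is known from Paneth cells, had another pattern. Mptx2 had 19485 normalized counts in KO5, 6452 in WT8 and 7908 in KO4, with 2142 in KO7 as its lowest value. Of the 50-base coding windows of Mptx1, 12.99% also occur in Mptx2, so reads of the pair may not be fully separated.

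Retnlb (ENSMUSG00000022650, chromosome 16, 48816856 to 48818892, plus strand, GRCm38) encodes resistin-like beta, a goblet cell protein that acts on bacteria and worms. It had 556 (WT3), 1763 (WT5), 199 (WT7) and 109 (WT8) normalized counts in WT. In Gsdme_KO it had 2316 (KO4), 3234 (KO5), 463 (KO7) and 529 (KO8). KO4 was the second highest library for Retnlb although it was among the lowest for the gasdermins. Means were 657 ± 762 and 1636 ± 1368 (SD, n = 4), a difference of 1.60 in log2 (SE 0.94, 95% interval -0.54 to 3.74, limma adjusted p = 0.849). It was 1.00 without WT8, 1.11 without KO5, 2.34 without WT5 and 0.37 without KO4 and KO5.

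The related Retnla had 18.2 normalized counts in WT8 and 47.6 to 149 in the other 7 libraries. Retnlg had 5.79 in WT8 and 36.5 to 85.8 in the others. Retn, which encodes resistin, had 22.5 in KO5, 49.7 in WT8 and 64.7 to 199 in the other 6. WT8 was thus the lowest library for Retnla and Retnlg as well as for Retnlb.

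Per kilobase of exon, Pla2g4c was the most abundant of the 8 genes, at 6722 ± 5582 normalized counts per kilobase in WT and 9798 ± 6403 in Gsdme_KO (SD, n = 4). In WT it was followed by Retnlb (944 ± 1095), Gsdmc4 (819 ± 822), Gsdmc2 (596 ± 580) and Stat6 (570 ± 32.7). Il4ra (302 ± 61.3), Mptx1 (199 ± 139) and Gsdmc3 (182 ± 135) came last. Pla2g4c and Retnlb, and Stat6 and Il4ra, differed by more than either SD, and the other neighbours in this order by less than the larger SD.

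Between genotypes, 0 of the 8 genes were called by limma at an adjusted p under 0.05, where 0.00612% of the 16352 genes tested (1 gene) were called. By edgeR and DESeq2 on the recovered reads 0 of the 8 were called too, with 0.00612% and 0.055% of all genes called, the latter 0.0489% higher and 0.00612% lower. At an unadjusted limma p under 0.05 there were 0 of 8, against 4.38% of all genes. None of the 8 had groups that did not overlap, against 2.5% of all genes. Log2 fold changes were positive for 7 of 8 with a median of 0.84, while 8275 of all 16352 genes were positive. This count rested on WT8, since without it 4 of 8 were positive with a median of -0.03. It was 5 of 8 with a median of 0.36 without KO5, and 7 of 8 with a median of 1.82 without KO4 or 1.52 without KO4 and KO5.

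**Figure D2:**
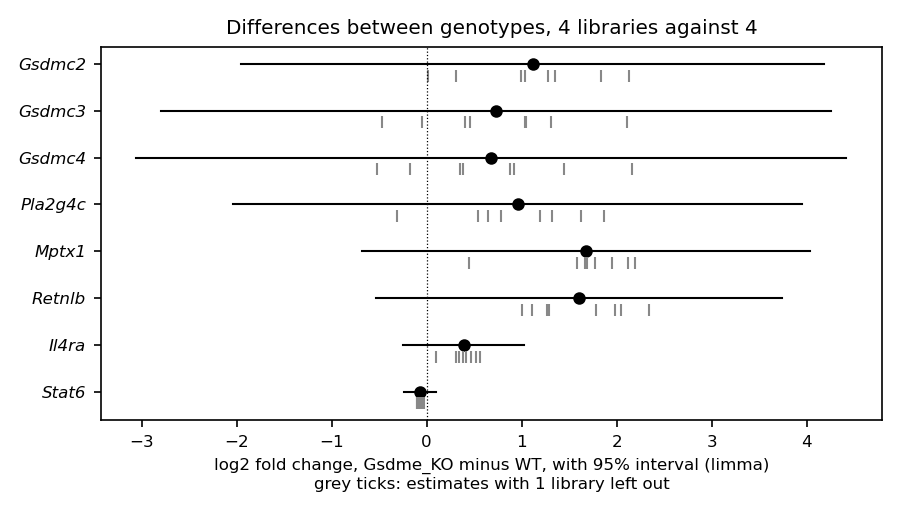
Log2 fold change, Gsdme_KO minus WT, on the log2(normalized count + 1) scale for each gene (dot) with its 95% limma interval (line), and the estimates when each library in turn was left out (grey ticks). Every interval includes 0, and for Gsdmc3, Gsdmc4 and Pla2g4c the ticks fall on both sides of 0.

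The spread within a genotype was among the largest in the table for 6 of the 8 genes. The SD of log2 values within genotypes was 2.81 for Gsdmc4, and 0.171% of the 16352 genes had a larger one. It was 2.64 for Gsdmc3, 2.30 for Gsdmc2 and 2.25 for Pla2g4c, with 0.239%, 0.44% and 0.465% of genes above them. Mptx1 (1.76, 1.13% above) and Retnlb (1.61, 1.45% above) followed. Il4ra, at 0.468, varied less than 22.4% of genes. The genes were chosen with these values known, so these ranks are a description and were not tested.

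To compare libraries, the Gsdmc level of a library was taken as the mean over Gsdmc2, Gsdmc3 and Gsdmc4 of log2(normalized count + 1), each minus its mean over the 8 libraries. It was 0.24 (WT3), 1.64 (WT5), 0.36 (WT7) and -3.93 (WT8) in WT, and -3.45 (KO4), 2.87 (KO5), 1.11 (KO7) and 1.17 (KO8) in Gsdme_KO. WT8 and KO4 were apart from the other 6 libraries, which ran from 0.24 to 2.87. Correlations over 8 libraries rest on this gap, so those over the other 6 stand beside them. KO5 is the high end of both, and it was not left out of the 6 as fewer than 6 libraries would remain.

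Each paralog followed the mean of the other paralogs, with Pearson r of 0.97 (Gsdmc2) and 0.99 (Gsdmc3 and Gsdmc4) over 8 libraries. Without WT8 and KO4, r was 0.99, 0.97 and 0.98. The part of reads that match more than 1 paralog in these values was not tested. Pla2g4c, on another chromosome and with little shared sequence, had r = 0.96 with the Gsdmc level (Spearman rho 0.95), and 0.87 over the 6 libraries. Of 3332 genes with an SD of at least 0.5, leaving out the paralogs, 1 had a higher r than Pla2g4c. Pla2g4c was chosen because it varied with the paralogs in these libraries, so this rank largely follows from the choice and is no test.

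The other 4 genes related to the Gsdmc level less evenly. Mptx1 had r = 0.71 (rho 0.86) over 8 libraries and 0.83 over the 6, and from 0.47 without WT8 to 0.96 without KO4. Retnlb had r = 0.38 (rho 0.50), which was 0.89 over the 6 libraries, 0.85 without KO4 and -0.03 without WT8. Il4ra had r = -0.22 and rho = 0.40, so that the measures differed in sign. Its r was 0.75 over the 6 libraries and without KO4, and -0.67 without WT8. Stat6 had r = -0.37 (rho -0.43) and -0.41 over the 6. The median r of the 11 receptor genes other than Il4ra was -0.27 over 8 libraries and 0.69 over the 6. That of the 16 signalling genes other than Stat6 was -0.24 and 0.53, so both medians changed sign. Retnlb and Il4ra were closer to each other than to the gasdermins over 8 libraries, with r = 0.73 (rho 0.81). This did not hold over the 6. There their r was 0.76, below the 0.89 of Retnlb with the Gsdmc level and near the 0.75 of Il4ra with it. KO4, with high Retnlb and Il4ra and low gasdermins, was the library in which these genes parted.

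**Figure D3:**
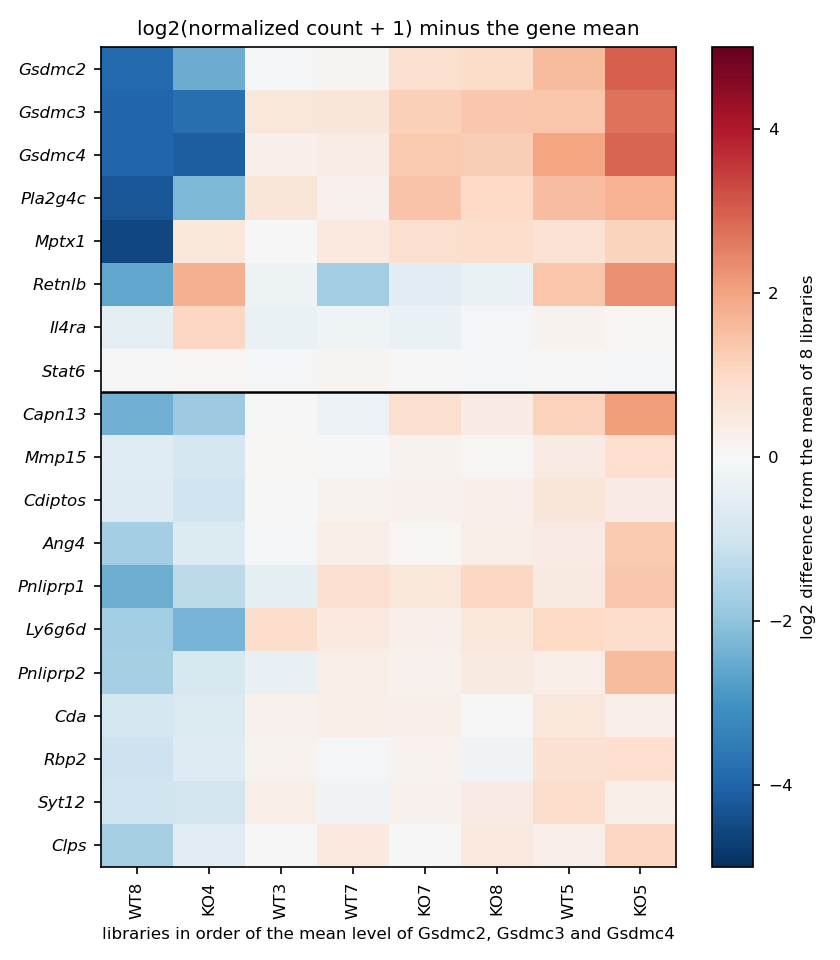
Log2(normalized count + 1) minus each gene's mean over the 8 libraries (colour, blue low and red high), for the 8 genes (above the line) and 11 of the 12 genes most alike to the Gsdmc level (below it), with libraries in order of that level. WT8 and KO4 are blue for the gasdermins, Pla2g4c and the 11 genes, while KO4 is red for Mptx1, Retnlb and Il4ra.

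The 12 genes most alike were ranked by r with the Gsdmc level over the 8 libraries, among genes with an SD of log2 values of at least 0.5. They ran from Capn13 (r = 0.98) to Clps (0.91), and Me1 (0.907) was the next. Of 3335 genes with that SD, 0.63% had an r of at least 0.9. Capn13, a calpain protease gene, had 606, 1341, 486 and 114 normalized counts in WT3, WT5, WT7 and WT8, and 172, 2603, 1055 and 810 in KO4, KO5, KO7 and KO8. It kept an r of 0.97 over the 6 libraries without WT8 and KO4.

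Mmp15 (r = 0.96), a membrane-bound matrix protease, had 1240 in WT8 and 1038 in KO4 against 1883 to 3397. Ang4 (r = 0.94), an antimicrobial ribonuclease of Paneth and goblet cells that interleukin-13 is known to induce, had 7877 in WT8 and 15786 in KO4 against 24103 to 62693. The reads of Ang4 are less certain because near-identical copies exist.

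Among the others were lipase-related genes and a vitamin carrier. Pnliprp2 (r = 0.93) and Pnliprp1 (r = 0.94), pancreatic lipase-related genes next to each other on chromosome 19, had 1213 and 7.45 in WT8, 2157 and 17.5 in KO4, and 11404 and 117 in KO5. Clps (r = 0.91), which encodes the lipase cofactor colipase, had 489 in WT8, 1037 in KO4 and 1528 to 3181 in the other 6. Rbp2 (r = 0.92), the retinol carrier of enterocytes, had 3409 in WT8, 4495 in KO4 and 6268 to 12538 in the others. Cdiptos, Ly6g6d, Cda and Syt12 were also among the 12, and for Cda (0.92 over 8 libraries, 0.20 over 6), Ly6g6d (0.93 and 0.38) and Syt12 (0.91 and 0.45) the relation rested on WT8 and KO4. Cdiptos lies antisense to another gene and its reads are uncertain. Cdiptos had 7 to 25 reads by library and Ly6g6d had 2 to 34, so counting error weighs on their r. By limma, 0 of the 12 were called between genotypes.

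At the other end, the 6 genes of lowest r ran from Ccna1 (-0.94) to Chodl (-0.87). Ccna1, Slfn3 and Gpr141 had few reads by library, at 5 to 33, 4 to 27 and 5 to 44, so counting error weighs on their r. Scara5, a ferritin receptor gene of stromal cells, kept its relation over the 6 libraries (-0.87 and -0.88) and had 118 normalized counts in WT8, 111 in KO4 and 21.8 in KO5. Slfn3, Gpr141, F13a1 and Chodl had r of -0.30 to 0.24 over the 6 libraries, so that theirs rested on WT8 and KO4.

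Other epithelial genes that interleukin-13 is known to induce mostly had a positive r with the Gsdmc level. Of 13 tested genes of that list other than the 8 genes, 11 had a positive r over 8 libraries, with a median of 0.39, and 10 over the 6, with a median of 0.57. The medians over all genes were -0.02 and -0.01, with 48.6% and 49.6% of genes positive. Medians above those of this list also occurred elsewhere. Over 8 libraries they were 0.58 for goblet cell markers and 0.48 for distal ileum markers (0.30 and -0.63 over the 6). Smooth muscle and stroma markers had 0.76 over the 6 (-0.16 over 8). Clca1, Muc2, Fcgbp, Spdef and Agr2 are also on the goblet cell list, and Ang4 is among the 12 genes most alike. Clca1, a goblet cell secreted protease gene, had 42802 in KO4 and 52597 in WT8 against 73939 to 101168. Sprr2a3, a small proline-rich protein gene, had 6152 in WT8 but 32470 in KO4 and 50741 in KO5, as Retnlb did, and its reads are uncertain since Sprr2a1 and Sprr2a2 are near-identical. Between genotypes 0 of the 13 were called, 8 had a positive log2 fold change and the median was 0.20, which was -0.01 without KO4 and KO5.

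Tuft cell markers were low in WT8. The summed level of the 19 listed genes was 2165 in WT8 and 3257 to 5175 in the other 7 libraries, including 3727 in KO4. Trpm5, the ion channel gene of tuft cell taste signalling, had 85.3 in WT8, 229 in KO4 and 311 to 559 in the others. Sh2d6 had 58.8 in WT8, 230 in KO4 and 302 to 623 in the others. Dclk1, a widely used tuft cell marker, had 231 to 336 and was not low in either. The most abundant marker was Ptgs1, a prostaglandin synthase gene, with 622 to 1016. Over 8 libraries 16 of 18 tested markers had a positive r with the Gsdmc level, with a median of 0.78, and over the 6 libraries 14 did, with a median of 0.33. Between genotypes 0 of 18 were called, 18 had a positive log2 fold change and the median was 0.40. Without WT8 it was 11 of 18 with a median of 0.07, and without KO4 and KO5 17 of 18 with 0.68.

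Goblet cell markers (11 tested beside Retnlb) had a median r of 0.58 over 8 libraries and 0.30 over the 6. Fcgbp, a mucus protein gene, had 52648 in KO4, 75880 in WT8 and 74350 to 106743 in the others. Muc2, the main gel-forming mucin, had 41267 in KO4, 51023 in WT8 and 49565 to 61521 in the others, a narrower range than that of the gasdermins. Between genotypes 0 of the 11 were called, with 3 positive log2 fold changes and a median of -0.16.

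Cell composition markers moved with the Gsdmc level in opposite ways depending on the libraries taken. Mature enterocyte markers had a median r of 0.42 over 8 libraries, when KO4 and WT8 are low for both, and -0.79 over the 6, when KO5 is high for the gasdermins and low for enterocyte genes. Anpep, the brush border aminopeptidase N gene, had 24511 in KO4, 27493 in KO5, 85851 in WT8 and 105667 to 148393 in the others, and Apoa1, an apolipoprotein gene, had 38533, 79975 and 74870 against 96803 to 143290. B cell and follicle markers had a median r of -0.16 over 8 and 0.87 over the 6, with all 13 positive. Cd79a, a B cell receptor subunit gene, had 2029 in KO4, 1240 in KO5 and 121 to 196 in the other 6, and the B lineage factor gene Spib had 1078, 788 and 82.8 to 279. Macrophage and neutrophil markers (14) had -0.29 and 0.75, and T cell and innate lymphoid markers (13) had -0.25 and 0.68. KO5 was thus the library with the highest Gsdmc level and, after KO4, the most B cell marker RNA and the fewest enterocyte marker counts. Markers of the proximal small intestine summed to 3131 in KO4, 4777 in KO5 and 6319 in WT8 against 7206 to 11278. Distal ileum markers summed to 45053, 60622 and 68982 against 98462 to 149678. The part of these cells and regions in the levels of Retnlb, Il4ra and the gasdermins was not tested.

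Among gasdermin-cleaving proteases 0 genes were called between genotypes, with 6 of 7 positive log2 fold changes and a median of 0.13, and the caspase gene Casp8, among the most abundant of them, had 3681 to 5978 normalized counts. Paneth cell markers (7 of 11 positive, median 0.17), mast cell, basophil and eosinophil markers (5 of 8, 0.28), crypt and cycling markers (3 of 10, -0.09) and smooth muscle and stroma markers (7 of 10, 0.04) also had 0 called. Their median r with the Gsdmc level also differed between the 8 libraries and the 6. It was -0.16 over 8 and 0.76 over the 6 for smooth muscle and stroma markers (10 of 10 positive over the 6), 0.07 and 0.56 for mast cell, basophil and eosinophil markers, and -0.04 and 0.40 for Paneth cell markers. It was -0.25 and -0.27 for crypt and cycling markers, and -0.30 and -0.02 for the proteases. Within the 6, the smooth muscle and stroma markers summed to 92698 in KO5 and 63769 to 67678 in the rest. KO5 also had the highest Gsdmc level, so their r over the 6 leans on this library. Large intestine markers had a median r of 0.02 over 8 and -0.40 over the 6, with 1 of 6 positive log2 fold changes and a median of -0.33.

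**Figure D4:**
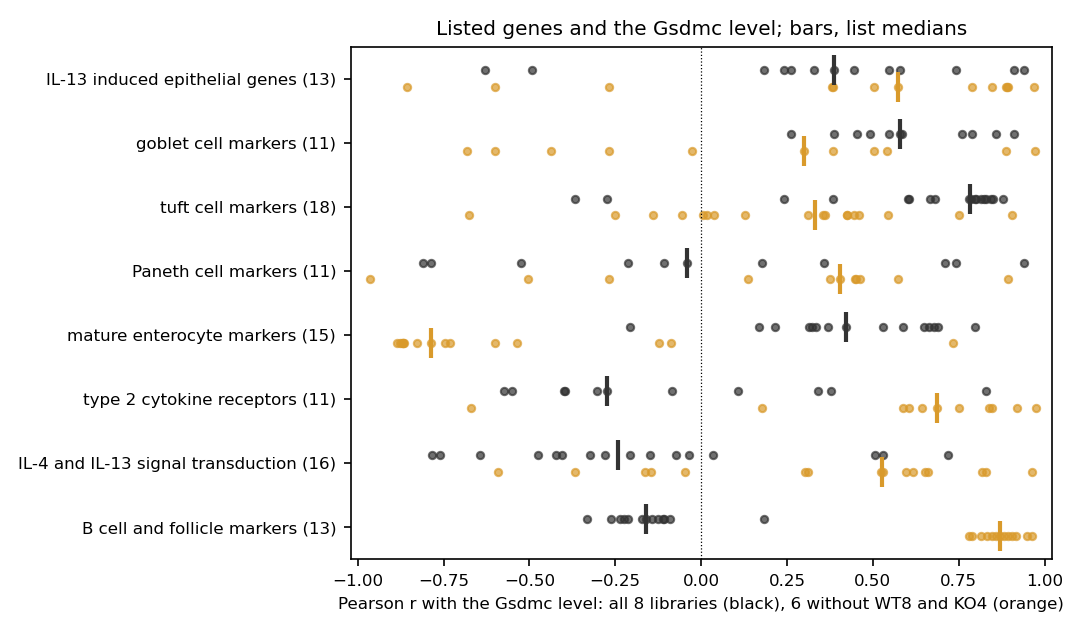
Pearson r of each tested gene of 8 lists with the Gsdmc level, over all 8 libraries (black) and over 6 libraries without WT8 and KO4 (orange), with bars at the list medians and the number of genes in brackets. Tuft cell markers lie mostly at high r over 8 libraries (median 0.78) and lower over 6 (0.33), while B cell and follicle markers go from -0.16 to 0.87.

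Promoter sequences from RefSeq (GRCm38.p6) were matched by symbol for 5 of the 8 genes, in 6 entries, and are shown for Gsdmc3 and Mptx1, since Gsdmc3 was low in WT8 and KO4 and Mptx1 in WT8 alone. They are the 250 bases before the start, with a TATAA in capitals. That of Gsdmc3 is chr15:63878559-63878808 on the minus strand and that of Mptx1 is chr1:174330268-174330517 on the plus strand.

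Gsdmc3: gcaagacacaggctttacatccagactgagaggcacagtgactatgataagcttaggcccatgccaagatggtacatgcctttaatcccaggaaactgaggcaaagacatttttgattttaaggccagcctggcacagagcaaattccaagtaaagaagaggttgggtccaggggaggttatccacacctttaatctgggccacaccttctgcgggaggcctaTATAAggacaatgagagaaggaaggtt
Mptx1: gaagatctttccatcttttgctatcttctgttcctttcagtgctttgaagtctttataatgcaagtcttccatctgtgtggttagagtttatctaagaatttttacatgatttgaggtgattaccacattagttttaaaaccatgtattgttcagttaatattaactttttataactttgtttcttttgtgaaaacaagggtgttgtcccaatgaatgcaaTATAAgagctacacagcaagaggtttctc

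The TATAA begins 27 bases before the start of Gsdmc3 and 29 before that of Mptx1, and 1 of the 2 Pla2g4c entries holds one 30 bases before its start. On the given strand 4.23% of 32851 promoters hold TATAA in the last 40 bases. TTC and GAA parted by 4 bases of any kind, the spacing that Stat6 is known to prefer, was searched on both strands and occurs in the 250 bases of 5.85% of promoters. TTC and GAA parted by 3 bases, the spacing of other Stat factors, occurs in 7.02%, and either of them in 12.4%. None of the 6 entries held either motif, which says only that these letters are not in these windows.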

How the data were processed

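The authors deposited 1 table of normalized signal (normalized read counts per gene). Alignment and counting tools in the submitters' processing notes are HISAT2, SAMtools, Subread and featureCounts, beside DESeq2 and the build GRCm38, with no versions. Per the labels, libraries were poly(A)-selected and strand-specific. Whole reads were recovered (100% of values whole within 0.01 reads). Column headers (WT3, WT5, WT7, WT8, KO4, KO5, KO7, KO8) show the genotype but cannot be tied to the labels' mouse numbers. No per-sample column was left unused (0).

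Genotypes were compared with limma-trend (limma 3.58.1, R 4.3.3) on log2(normalized count + 1) for 16352 genes with a mean of at least 10, with Benjamini-Hochberg adjustment. Adding 1 to the counts understates changes of low genes. On simulated data for this comparison, with each gene drawn independently, the step was tested and recovered the changes. The simulated data hold no shifts shared by many genes of a library, as seen in WT8, KO4 and KO5. Recovery with such shifts was not tested. Alternatives were edgeR 4.0.16 and DESeq2 1.42.0 on recovered reads, pseudocounts of 0.5 and 5, other filters, TMM and quantile scaling, and each library left out. Leaving out KO4 and KO5, and WT8 and KO4, was chosen after seeing the data. Positions and coding sequences are from GENCODE M21, and Biopython 1.88 aligned them.

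The 8 genes and the gene lists were chosen with earlier results of these data known. Named genes were the 8, the most abundant listed genes, the 12 most and 6 least alike to the Gsdmc level (leaving out gene models, pseudogenes and receptor segments) and neighbours of the cluster. A few of these are not reported here. Untested ligands, Gsdmcl genes and Gsdmcl-ps, Socs1, Sprr2a3, Muc2, Trpm5, Sh2d6, Dclk1, Retnla and Retnlg were named after their values were seen. Of the listed symbols, Itlnb and Faim3 had no match.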

Additional observations from a re-analysis of the deposited data

Results flagged for a closer look

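In WT, Gsdmc3 had 18.2 normalized counts in WT8 and 440 to 784 in the other 3 libraries, a gap to the nearest library that took 0.845 of the range of log2 values. Mptx1 had 5.79 in WT8 and 154 to 258 in the other 3, a gap of 0.859. Such a gap above Dixon's critical value for 4 libraries marks an outlying library, and 2 of the 18 groups looked at passed it. Chance marks about 1 in 20 groups, but that rate is no yardstick here, since the genes were chosen with these values known and the paralogs vary together. Both marks fall on WT8, which Gsdmc2 (0.693), Gsdmc4 (0.712) and Pla2g4c (0.776) also place lowest in WT without reaching that value. KO4 came close for Pla2g4c (0.817). The tuft cell marker sum was lowest in WT8 as well (2165 against 3257 to 5175), and its part in these gaps was not tested.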

How the results depend on the processing

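No paired analysis was possible because the columns carry header numbers that cannot be tied to the labels' mouse numbers. Of the values recomputed under other settings, 278 were marked as the same, 21 as moved and 9 as changed in sign. A value marked as the same can still differ in size. The log2 fold change of Gsdmc2 went from 1.12 to 0.01 without WT8 and was marked so. Some correlations were marked as moved although they kept their sign. Differences between genotypes with each library left out in turn ran from 0.01 to 2.13 (Gsdmc2), -0.47 to 2.11 (Gsdmc3), -0.52 to 2.16 (Gsdmc4), -0.31 to 1.86 (Pla2g4c), 0.45 to 2.20 (Mptx1), 1.00 to 2.34 (Retnlb), 0.10 to 0.57 (Il4ra) and -0.10 to -0.03 (Stat6). The sign changed without WT8 for Gsdmc3 (-0.47), Gsdmc4 (-0.52) and Pla2g4c (-0.31), and without KO5 for Gsdmc3 (-0.05) and Gsdmc4 (-0.18). None of the 8 genes was called in any of these fits. Across the table, genes called higher numbered 8 by DESeq2, 0 without KO4 and KO5, and 0 to 1 with 1 library left out, remaining 1 only without WT8. Genes called lower numbered 1 by DESeq2 and 1 without KO4 and KO5. Listed genes called numbered 4 by DESeq2 (Bank1, Fcer2a, Gsdme and Pax5) and 1 without KO4 and KO5 (Gsdme). The cause was not tested.

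Correlations with the Gsdmc level moved as follows. Spearman rho was 1.00 for Gsdmc2, 1.00 for Gsdmc3, 0.952 for Gsdmc4 and 0.405 for Il4ra, the last against a Pearson r of -0.22. Without WT8 and KO4, r was 0.995 (Gsdmc2), 0.975 (Gsdmc3), 0.983 (Gsdmc4), 0.870 (Pla2g4c) and 0.754 (Il4ra), and with the level from summed counts it was 0.983 for Gsdmc4. With 1 library left out, r ran from 0.961 to 0.976 for Pla2g4c, 0.465 to 0.959 for Mptx1, -0.0294 (without WT8) to 0.847 for Retnlb and -0.669 to 0.747 (without KO4) for Il4ra. Depth limits the low values of Gsdmc3 and Mptx1, which rest on 7 to 23 reads in WT8 and KO4.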
